A study of Mus musculus with 8 samples.

Results

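The locus described here holds Cdkn2a and Cdkn2b on mouse chromosome 4, taken as the 55 kb that begin at 88910001 (mm9). It was followed in 110 bins of 500 bp out of 5283703 on the placed chromosomes, and in the 15 peaks, of 43575 listed by the authors in 6 libraries, that touched it. Chromatin immunoprecipitation followed by sequencing had been done in cultured mouse embryonic fibroblasts of stage E13.5, either wild type or E2f3-/-, using an antibody to E2F3, to HELLS or to H3K27me3, or control IgG. Each of the 8 groups was 1 library, so values compare libraries and not conditions, no p-value is given, and intervals are exact 95% intervals for counting error only. The labels do not say how many embryos each library came from, nor give the age of the cultures. The 6 ChIP libraries held 3799779 to 5640555 distinct reads. Both genotypes' IgG files held the same reads (7219419 distinct ones), so they served as 1 background.

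Cdkn2a has separate promoters for 2 unrelated proteins that share coding exons in different reading frames. Ink4a encodes an inhibitor of the cyclin D kinases CDK4 and CDK6, and Arf encodes a protein that holds back MDM2 and so stabilises p53. The neighbouring Cdkn2b encodes Ink4b, another inhibitor of the cyclin D kinases. In fibroblasts all 3 act as brakes on division and are switched on as cells are passaged, and Polycomb complexes, which lay down H3K27me3, keep them silent in young cultures. E2F3 is a transcription factor that is known to bind and repress Arf in mouse fibroblasts. HELLS is an SNF2-like helicase that remodels chromatin.

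The 3 promoters of the locus differ in sequence, and they are shown because the E2F3 peaks of the locus were spaced like the Arf and Cdkn2b starts and an H3K27me3 peak like the Ink4a start. RefSeq windows of the assembly GRCm38.p6 matched both genes, with 3 starts, all on the minus strand. The 250 bases before each start are given 5′ to 3′, with E2F motifs in capitals.
Cdkn2a, Arf start: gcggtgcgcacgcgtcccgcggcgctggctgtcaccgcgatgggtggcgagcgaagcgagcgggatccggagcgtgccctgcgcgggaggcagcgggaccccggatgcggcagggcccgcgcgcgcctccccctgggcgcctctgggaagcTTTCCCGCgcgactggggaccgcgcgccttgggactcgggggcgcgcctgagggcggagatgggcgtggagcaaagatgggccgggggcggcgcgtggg
Cdkn2a, Ink4a start: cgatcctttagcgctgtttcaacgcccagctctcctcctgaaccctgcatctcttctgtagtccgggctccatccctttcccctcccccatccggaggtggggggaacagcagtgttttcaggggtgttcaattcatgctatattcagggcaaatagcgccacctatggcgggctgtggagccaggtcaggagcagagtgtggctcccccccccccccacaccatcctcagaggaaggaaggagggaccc
Cdkn2b start: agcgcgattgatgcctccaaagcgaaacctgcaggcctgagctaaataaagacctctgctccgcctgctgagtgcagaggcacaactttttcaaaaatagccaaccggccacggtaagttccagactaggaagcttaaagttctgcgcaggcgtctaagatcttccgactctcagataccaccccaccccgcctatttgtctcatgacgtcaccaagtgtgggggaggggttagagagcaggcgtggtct
The motifs searched on both strands were TTTCCCGC, TTTGGCGC, TTTCGCGC and TTTGCCGC. The Arf window held 1 match, TTTCCCGC from base -99 to base -92 before the start, and the other 2 windows held 0. Of 32851 promoter windows of this length, 1.86% held a match. The Arf window was 78.4% G or C with 40 CG dinucleotides, the Ink4a window 60% with 7, and the Cdkn2b window 53.6% with 12. The median over all windows was 52.4% and 6 CG dinucleotides. A match is a run of letters and not a measured site.

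E2F3 bound the locus at 2 places in wild-type cells, and the stronger one was among the strongest of the genome. The first peak ran from 88940226 to 88941669 with its summit at 88940677. The second ran from 88956260 to 88957041 with its summit at 88956655. Their summits lay 15978 bp apart, beside 16413 bp between the Arf and Cdkn2b starts in GRCm38.p6. No gene model of mm9 was used, so the peaks are called the Arf region and the Cdkn2b region by this order and spacing, and no start was placed within them.

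The Arf region held 229 wild-type E2F3 reads, against 26 IgG reads, which was 14.5 times IgG (9.63 to 22.7) after scaling by reads outside all peaks. It ranked 23 by wild-type reads among 9643 E2F3 regions of both genotypes, whose median was 38 reads. By the authors' score it ranked 47 of 8889 wild-type peaks, with a score of 1377.11, a fold enrichment of 60.61 and a pileup of 117 tags at the summit. The reads were packed so closely that 28.4% of the strand positions within 150 bp of the summit held a read. Reads were counted once per position and strand, which limits how high such a summit can count. The Cdkn2b region was weaker, with 34 wild-type E2F3 reads against 13 IgG reads, or 4.30 times IgG (2.21 to 8.88). Its authors' score of 80.97 ranked 6389 of the 8889 peaks.

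**Figure D1:**
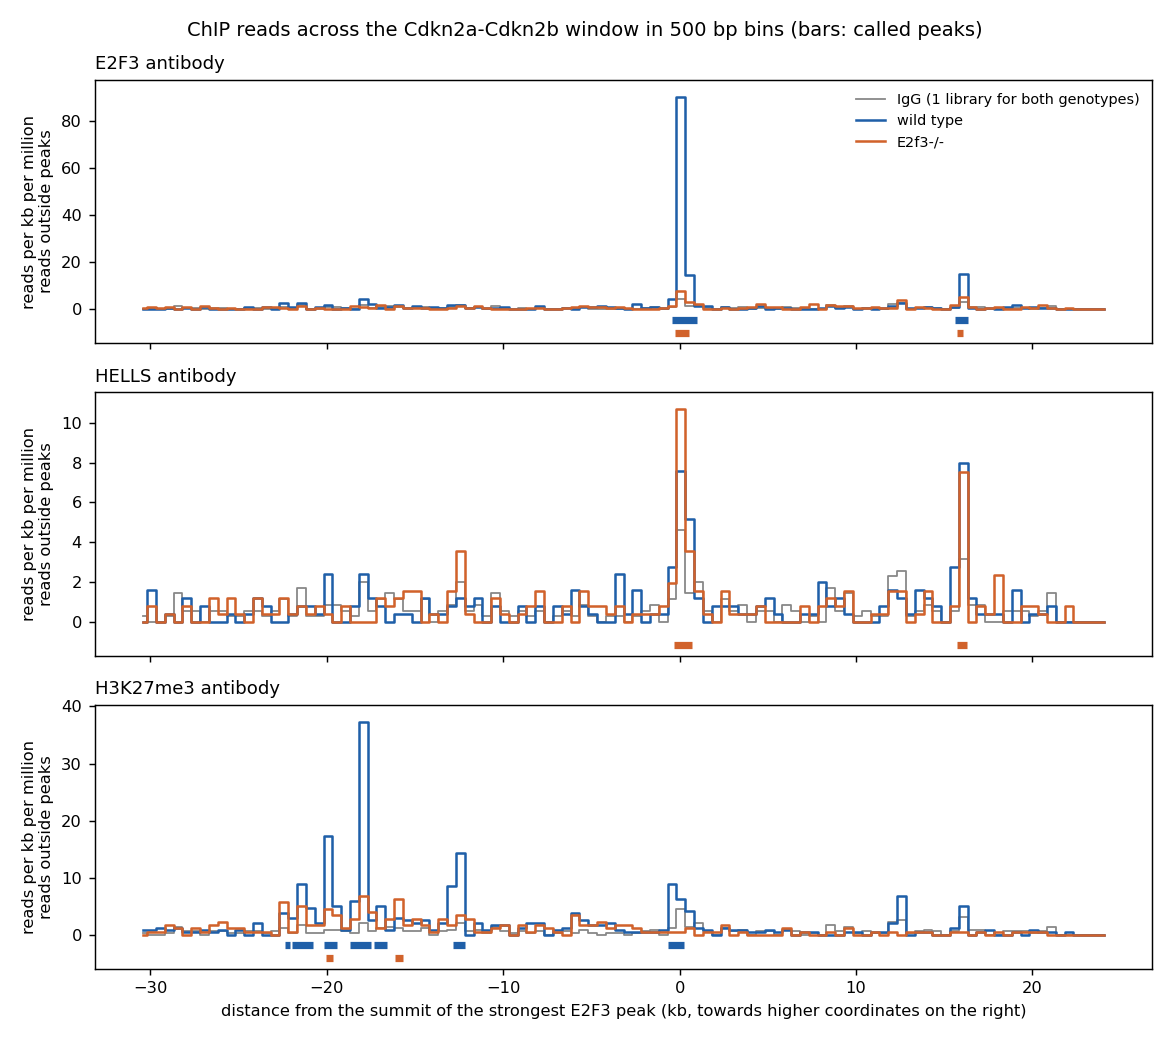
Read density, per kb and scaled to the reads outside peaks, in 500 bp bins of the window, for each antibody in wild-type and E2f3-/- cells with IgG in grey; the horizontal axis gives the distance from the stronger E2F3 summit in kb, and bars mark the authors' peaks. E2F3 stands at 2 places in wild type, HELLS at the same 2 places in both genotypes, and H3K27me3 to the left of them, mainly in wild type.

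E2F3 antibody signal fell at both regions in E2f3-/- cells, by a larger factor at Arf, where it began higher. The Arf region went from 229 to 26 reads, a scaled ratio of 0.118 (0.0755 to 0.177), and the Cdkn2b region from 34 to 14, a ratio of 0.428 (0.212 to 0.819). The words lower and higher are kept for ratios of at least 2-fold whose interval leaves out 1. Both regions were lower, in a background where 66.8% of all E2F3 regions were. On the log2 scale, with 0.5 added to both counts, the Arf region stood at -3.06 and the Cdkn2b region at -1.20, beside a median of -1.45 over all E2F3 regions. Only 5.78% of regions had a value as low as that of Arf, whereas 62.7% were at or below that of Cdkn2b. The Arf and Cdkn2b regions began at 14.5 and 4.30 times IgG in wild type and ended at 1.71 and 1.84 times in E2f3-/- cells. The larger factor at Arf thus goes with its higher wild-type level and not with a lower remaining one. Over both regions together the ratio was 0.158 (0.110 to 0.221).

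What remained with the E2F3 antibody in E2f3-/- cells was somewhat above IgG, though the interval at each region includes the IgG level. It was 1.71 times IgG at the Arf region (0.954 to 3.06) and 1.84 times at the Cdkn2b region (0.802 to 4.25). The median over all E2F3 regions in these cells was 1.86. The authors still listed a peak at each region in E2f3-/- cells, with scores of 54.78 and 52.15 and false discovery rates of 8.04% and 11.28%. Those peaks had summits 126 bp and 3 bp from the wild-type ones.

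The fall at Arf did not rest on the scaling, but the one at Cdkn2b did. When libraries were scaled to the median of E2F3 regions listed in both genotypes, which removes any change those regions share, the Arf ratio was 0.264 (0.169 to 0.396) and the Cdkn2b ratio 0.956 (0.474 to 1.83). After subtracting IgG from both genotypes the ratios were 0.0526 and 0.255.

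HELLS reads lay over IgG at both regions in both genotypes and showed no loss without E2f3. At the Arf region there were 36 wild-type and 41 E2f3-/- HELLS reads against 26 with IgG, which scaled to a ratio of 1.13 (0.705 to 1.82). At the Cdkn2b region there were 25 and 21 against 13, with a ratio of 0.834 (0.444 to 1.55). The intervals leave room for a rise of up to 1.82-fold at Arf and for a fall to 0.444 of the wild-type level at Cdkn2b. HELLS stood at 1.92 times IgG at Arf in wild type (1.13 to 3.31) and 2.17 times in E2f3-/- cells (1.29 to 3.69), and at 2.66 (1.31 to 5.67) and 2.22 times (1.06 to 4.83) at Cdkn2b. Over all E2F3 regions the medians were 1.77 and 1.97, and HELLS reads were lower at 0.664% and higher at 2.28% of them. The E2F3 antibody in E2f3-/- cells gave 1.71 at Arf, an interval that overlaps those of HELLS. Whether the HELLS value there is binding of HELLS or enrichment common to antibodies was not tested.

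The peak lists read differently from the reads. In wild-type cells the authors listed 0 HELLS peaks in the window, and in E2f3-/- cells 2, at 88940342 to 88941383 and at 88956405 to 88956963. Inside these 2 peaks the reads were 33 and 40 (ratio 1.20, 0.740 to 1.97) and 22 and 21 (ratio 0.948, 0.496 to 1.81). Neither was higher or lower, where 5.2% of all HELLS regions were higher and 4.65% lower. Their summits lay 43 bp and 19 bp from the wild-type E2F3 summits. Their scores were 95.66 and 104.92 with false discovery rates of 0.56% and 0.6%. Per the file headers, the lists were called against separate controls of 3444066 and 3791438 tags.

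**Figure D2:**
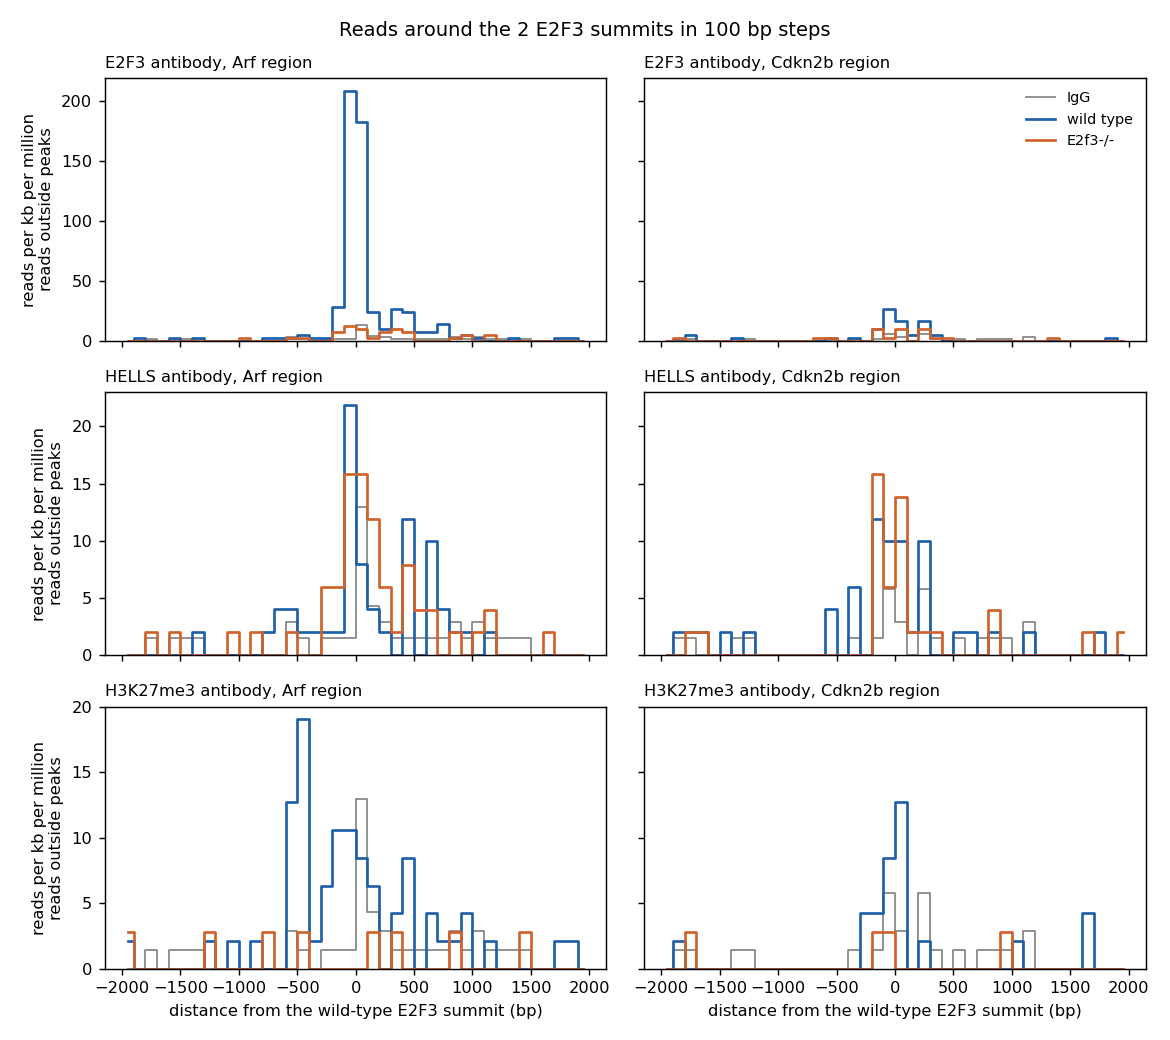
Read density, per kb and scaled to the reads outside peaks, in 100 bp steps within 2000 bp of the 2 wild-type E2F3 summits, for each antibody and genotype with IgG in grey; each row shares its vertical axis. E2F3 collapses at Arf in E2f3-/- cells, HELLS keeps about the same height, and H3K27me3 reads nearly vanish.

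H3K27me3 formed a domain in wild-type cells that ended well short of the Arf region. Of the 7 wild-type peaks in the window, 6 joined across gaps of up to 5 kb into a domain of 10.2 kb from 88918308 to 88928515. It held 314 wild-type reads against 64 IgG reads, 7.23 times IgG (5.51 to 9.61). The highest bin, from 88922501 to 88923000, held 88 wild-type reads against 7 IgG reads. It lay in the strongest peak, from 88921988 to 88923167, with an authors' score of 916.48, rank 1037 of 17064, and a fold enrichment of 92.92. The peak at the high end of the domain, from 88927822 to 88928515, held 53 reads against 9 IgG reads. Its summit was 12.7 kb below the E2F3 summit of Arf, beside 12.4 kb between the Ink4a and Arf starts in GRCm38.p6, so it is the peak nearest to where Ink4a is spaced. E2F3 reads in that peak were 7 in wild type and 3 in E2f3-/- cells and HELLS reads 5 and 11, against 9 IgG reads. No E2F3 or HELLS peak was listed there.

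Outside the 2 E2F3 regions, wild-type H3K27me3 was lower in each stretch from the domain towards Cdkn2b, and the E2F3 regions had more reads per kb than the stretches beside them. In reads per kb, wild type had 30.8 in the domain and 7.0 in the 11.7 kb between it and the Arf region. It had 3.22 between the Arf and Cdkn2b regions and 1.13 beyond Cdkn2b. Relative to IgG these 4 stretches stood at 7.23, 3.26 (2.19 to 4.95), 1.02 (0.687 to 1.5) and 0.663 times (0.266 to 1.52). The Arf region had 23.5 reads per kb and the Cdkn2b region 19.2, where IgG was high too (18.0 and 16.6), so that they stood at 1.93 (1.12 to 3.34) and 1.70 times IgG (0.754 to 3.88). The 8.31 kb before the domain stood at 1.66 times IgG (0.920 to 3.0). Averaged over each stretch, the mark was thus over IgG in the domain and in the 11.7 kb before the Arf region. It did not fill that stretch evenly. Each bin from 88937001 to 88940000 held 1 or 2 wild-type H3K27me3 reads, against 0 to 3 IgG reads. Past the Arf region the intervals include the IgG level. The 55 kb on either side of the window held 0 peaks of any list. IgG reads were sparse there too, with 97 below and 28 above, against 252 in the window. Within the window, 6 bins, all from 88955501 upwards, held no read of any library. Few reads could thus be counted in these parts.

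**Figure D3:**
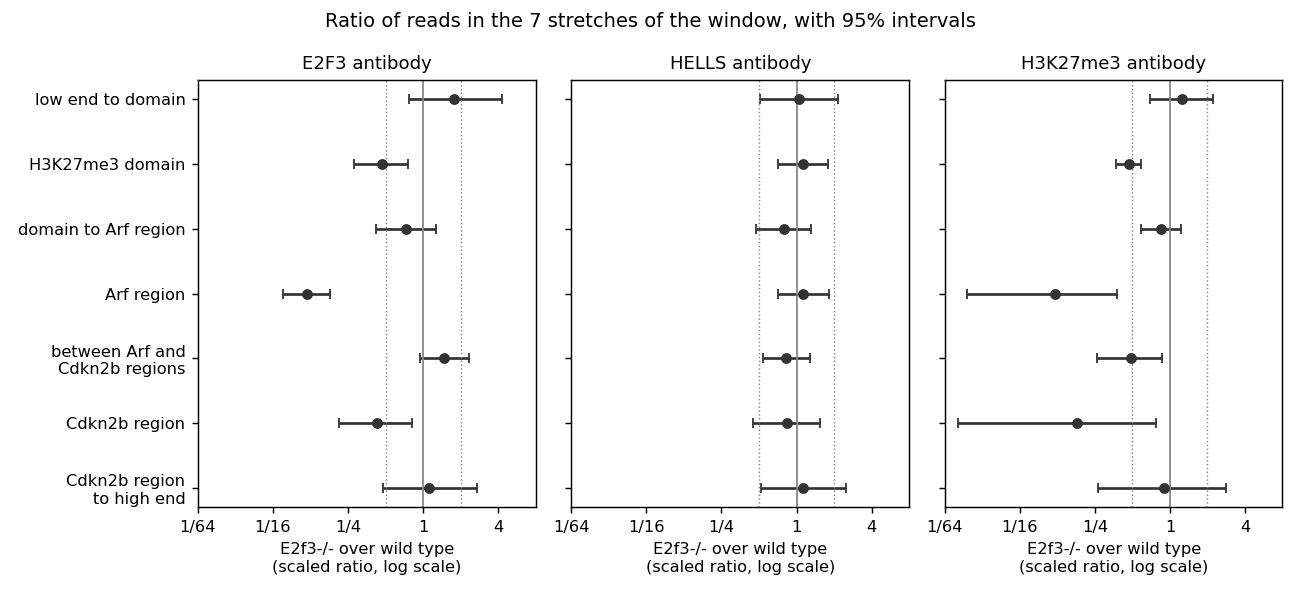
Scaled ratio of E2f3-/- to wild-type reads on a log scale in the 7 stretches that make up the window, for each antibody; points are ratios, bars are 95% intervals, and dotted lines mark 2-fold. The E2F3 ratio is lowest at Arf (0.118), the HELLS intervals all include 1, and the H3K27me3 ratio is lowest at Arf (0.118) and Cdkn2b (0.179).

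H3K27me3 reads were fewer across the domain in E2f3-/- cells, mostly at its peaks. The domain went from 314 to 109 reads, a ratio of 0.466 (0.371 to 0.581), and was still 3.37 times IgG (2.45 to 4.66). Inside its 6 wild-type peaks, 4.76 kb in all, there were 268 and 70 reads, a ratio of 0.351 (0.266 to 0.458). In the 5.45 kb between them there were 46 and 39, a ratio of 1.14 (0.724 to 1.78). Peaks were chosen on wild-type reads, which by itself makes wild type higher inside them, so this contrast is a description. Over the whole window there were 528 and 214 reads, a ratio of 0.544 (0.462 to 0.639). The fall was not confined to marked stretches. Between the Arf and Cdkn2b regions, at 1.02 times IgG in wild type, reads went from 47 to 17. That was a ratio of 0.486 (0.261 to 0.862), ending at 0.494 times IgG (0.272 to 0.851). The stretches before the domain, before the Arf region and beyond Cdkn2b were neither lower nor higher (ratios 1.24, 0.852 and 0.895).

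The single H3K27me3 regions were not all called alike. Of the 8 regions listed in either genotype, 5 were lower and 0 higher, beside 41.3% lower and 2.75% higher over all 18563 H3K27me3 regions. The strongest peak went from 105 to 22 reads, a ratio of 0.281 (0.169 to 0.449), and the Ink4a-spaced one from 53 to 9, a ratio of 0.228 (0.0989 to 0.466). The region from 88920536 to 88921238 went from 47 to 12 reads, a ratio of 0.343 (0.166 to 0.656), and the one from 88918686 to 88919896 from 37 to 13, a ratio of 0.472 (0.230 to 0.908). The other 3 regions were neither lower nor higher, and their intervals overlapped that of the region from 88918686 to 88919896. The one at the low edge of the domain had 10 and 9 reads (ratio 1.21, 0.435 to 3.31), and the one from 88923372 to 88924069 had 16 and 5 (0.420, 0.120 to 1.20). The region from 88924547 to 88924983, listed in E2f3-/- cells alone, had 7 and 11 (2.11, 0.747 to 6.42). Its interval lay above those of the strongest peak, the Ink4a-spaced one and the region from 88920536 to 88921238. The intervals of this region and of the one at the low edge also lay above that of the lower region from 88940032 to 88940909 (0.00870 to 0.290). A region listed in a single genotype was chosen on that genotype's reads, which by itself makes that genotype higher in it.

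The authors listed only 2 H3K27me3 peaks in E2f3-/- cells, with scores of 63.17 and 54.68 and false discovery rates of 17.43% and 24.17%. Of the 31 bins with at least 7 reads, 8 were lower, where 12.1% of such bins were lower over the genome. Those in the domain began at 88920501, 88922501, 88927501 and 88928001, and those outside it at 88940001, 88940501, 88953001 and 88956501. In wild type the bins at 88940501 and 88956501 stood at only 1.38 (0.636 to 2.98) and 1.61 times IgG (0.649 to 4.02). Of 43 bins with at least 5 reads, 1 was higher, where 0.982% were. For E2F3, 3 of 15 bins with at least 6 reads were lower (6.85% over the genome) and 0 higher (0.849%), all 3 of them at the Arf and Cdkn2b regions. For HELLS, 1 of 21 was lower (1.41%) and 0 higher (1.16%). The depth, with a median of 1 read per bin in each ChIP library but wild-type H3K27me3, which had 2, could not show a change in most bins.

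At the Arf region itself H3K27me3 was weak in wild type and below IgG in E2f3-/- cells. The last wild-type peak, from 88940032 to 88940909, overlapped the E2F3 peak, with its summit 487 bp below the E2F3 summit. It held 36 wild-type reads, 2 E2f3-/- reads and 18 IgG reads, which scaled to a ratio of 0.0746 (0.00870 to 0.290). Its authors' score of 50.85 ranked 16141 of 17064. In the whole Arf region wild type had 34 reads, or 1.93 times IgG (1.12 to 3.34), and E2f3-/- cells had 3, or 0.228 times IgG (0.0442 to 0.745). The Cdkn2b region had no H3K27me3 peak in either genotype, yet went from 15 to 2 reads, with 13 for IgG and a ratio of 0.179 (0.0199 to 0.770).

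H3K27me3 reads were also fewer in E2f3-/- cells at E2F3 regions elsewhere, with or without an H3K27me3 peak. The Arf region is 1 of 2135 E2F3 regions with such a peak, where the median level was 6.94 times IgG in wild type and 2.35 times in E2f3-/- cells and 77.2% were lower. The Arf region, at 1.93 and 0.228 times IgG, was below both medians. The Cdkn2b region is 1 of the 7508 without a peak, where the median H3K27me3 level was 1.15 times IgG in wild type and 0.319 times in E2f3-/- cells and 41.8% were lower. Over all 9643 E2F3 regions H3K27me3 reads were lower at 49.6% and higher at 0.0104%, with a median log2 ratio of -1.76. On that scale the Arf region stood at -2.88 and the Cdkn2b region at -2.21, with 17.4% and 34.2% of E2F3 regions at or below them. The H3K27me3 fall at the 2 regions runs beside a difference between the 2 H3K27me3 libraries that is seen at unmarked E2F3 regions, whose part in it was not tested.

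The H3K27me3 falls depended on the scaling. Scaled to the median of H3K27me3 regions listed in both genotypes, the domain ratio was 0.942 (0.751 to 1.18) and that of the window 1.10 (0.934 to 1.29). Of the 8 regions, 2 then stayed lower, the Ink4a-spaced one at 0.461 (0.200 to 0.943) and the one at Arf at 0.151 (0.0176 to 0.586), and the one listed in E2f3-/- cells alone was higher at 4.27 (1.51 to 13.0). The fall of H3K27me3 reads in the Arf region stayed at 0.239 (0.0471 to 0.762) and that in the Cdkn2b region was no longer lower at 0.362 (0.0402 to 1.56). With all distinct reads as the scale the domain ratio of 0.515 (0.411 to 0.643) did not reach 2-fold, nor did that of the region from 88918686 to 88919896 (0.522, 0.254 to 1.004), which left 4 of 8 lower. Subtracting IgG gave 0.380 for the domain and 0.326 for the window. The shares called over all H3K27me3 regions were computed for the main scaling alone.

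Among long H3K27me3 domains the one at Cdkn2a was near the median in strength, and its log2 ratio lay just below the first quartile. It was 1 of 471 wild-type domains over 10 kb and among the shortest of them, ranking 458 by length. It had 30.8 wild-type reads per kb beside a median of 32.0, and 10.7 E2f3-/- reads per kb beside 13.1. Its log2 ratio of -1.10 compared with a median of -0.88 (quartiles -1.07 and -0.68), and 103 of the 471 were at or below it. The call of lower, which it met, was met by 33.8% of them. The 3 domains most like it, by length and by wild-type reads per kb of the 3 antibodies, lay on chromosome X from 7496701 to 7505920, on chromosome 19 from 25574911 to 25584407 and on chromosome 2 from 180881062 to 180892439. They were sought among domains of any length, and the first 2, of 9220 and 9497 bp, are not among the 471. Their ratios were 0.435 (0.340 to 0.552), 0.382 (0.295 to 0.489) and 0.615 (0.507 to 0.745). The interval of the Cdkn2a domain overlapped all 3.

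**Figure D4:**
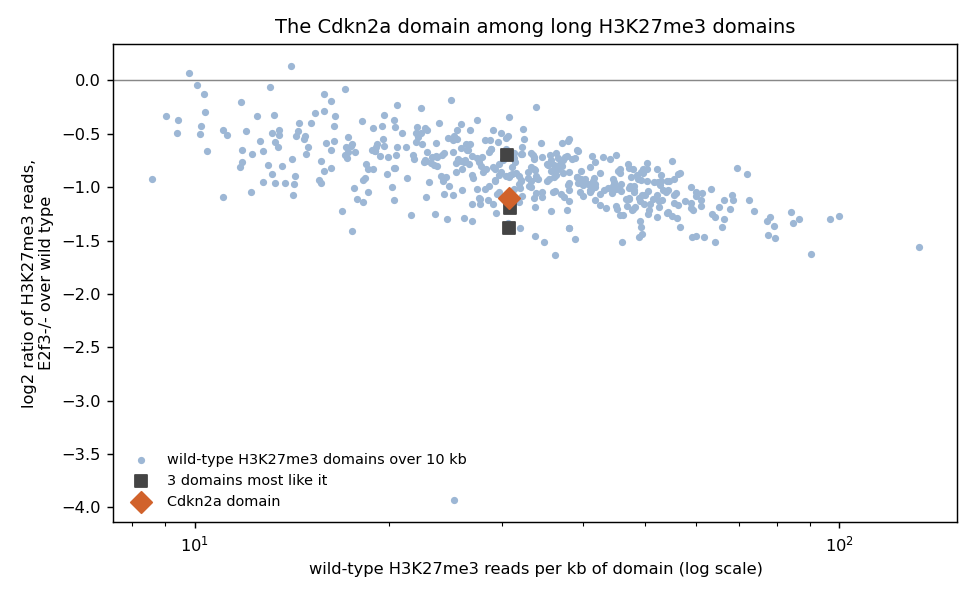
Log2 ratio of E2f3-/- to wild-type H3K27me3 reads against wild-type H3K27me3 reads per kb (log scale), with 1 point for each of the 471 wild-type domains over 10 kb; the diamond is the Cdkn2a domain and the squares the 3 most like it, of which 2 are under 10 kb. The Cdkn2a domain, at -1.10 and 30.8 reads per kb, lies within the cloud.

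Compared with the genome in windows of 55 kb, the locus stood out for E2F3. Only 0.0969% of 42291 windows had a log2 E2F3 ratio as low as its -1.22, and 74 windows held at least its 411 wild-type E2F3 reads. In all, 0.336% of windows were lower and 0.0378% higher for E2F3, and the locus was lower. For H3K27me3 its value of -0.88 was matched or passed by 2.51% of windows, and for HELLS its value of -0.06 by 36.1%. For these the locus was neither lower nor higher, where 1.32% and 0.936% of windows were for H3K27me3 and 0.0189% and 0.0402% for HELLS. The 55 kb below the window had E2F3, HELLS and H3K27me3 ratios of 0.961 (0.667 to 1.38), 0.835 (0.569 to 1.22) and 0.961 (0.702 to 1.31). The 55 kb above it held only 9 to 24 reads per ChIP library.

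Background reads of the locus were found in both genotypes. Outside peaks the window held 2.28 E2F3-antibody reads and 2.60 HELLS reads per kb in E2f3-/- cells. These were 1.47 times (1.20 to 1.77) and 1.34 times (1.12 to 1.60) the genome's own level outside peaks. In wild-type cells the same figures were 1.37 (1.12 to 1.66) and 1.34 (1.11 to 1.60), and IgG had 1.34 (1.15 to 1.56). H3K27me3 reads outside peaks stood higher, at 2.24 times (1.93 to 2.58) in wild-type and 2.00 times (1.66 to 2.38) in E2f3-/- cells. For each antibody the intervals of the 2 genotypes overlapped.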

How the data were processed

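Reads of the 6 ChIP libraries, 1 per genotype and antibody, and of IgG, whose file was the same for both genotypes, were used as deposited. They are aligned positions (build mm9 is named per the submitters' processing notes). Which aligner was used is not given in the sources used here. The authors called peaks in each library using MACS 1.4.0beta with IgG as control at a p cutoff of 1e-05, per the file headers. The deposited tables give tag counts per peak, a score (10 times the negative log10 of p), the fold enrichment as a ratio to the local expectation and, in percent, the false discovery rate. Summit heights are the authors' deposited pileup signal, not scaled.

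Duplicates (same position and strand) were reduced to 1 read, and each read was shifted 60 bp towards the centre of its fragment. Counts were scaled by distinct reads outside all 27092 peak regions. Peaks of both genotypes sharing 1 bp were merged per antibody. Ratios carry exact conditional binomial 95% intervals. The call rule was run on simulated counts that held counting error alone, which cannot test it against spread between libraries. A floor of 3 counts per library stood for 0 reads. Windows of 55 kb under 0.5 of the median IgG count were left out. Python 3.11.15, numpy 2.4.6, pandas 2.3.3 and scipy 1.17.1 were used. Named items were both genes, every peak in the window and the 3 domains closest in length and wild-type read density. The members, lists and rules were chosen with earlier results of these data known. The alternatives were every deposited read, 3 other scalings, other read shifts, IgG subtraction, 500 bp at the summits, peaks of score 100 or more, a 1.5-fold threshold and bins of 5 kb.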

Additional observations from a re-analysis of the deposited data

How the results depend on the processing

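No paired analysis was possible because each group is 1 library. Using regions present in both genotypes' lists as the scale removes a change common to those regions (log2 -1.16 for E2F3 and -1.02 for H3K27me3). It moved the H3K27me3 ratio of the window from 0.544 to 1.10, the count of lower H3K27me3 bins from 8 to 3, and the E2F3 ratio over both regions from 0.158 to 0.353. The ratio of E2F3 reads in the H3K27me3 domain (56 and 25 reads), 0.464 in the main scaling, turned to 1.04. Subtracting IgG moved the H3K27me3 ratio of the window to 0.326 and the E2F3 ratio to 0.0746. In bins of 5 kb, 4 of 11 were lower for H3K27me3. The one that began at 88920001 lay in the domain, and those at 88940001, 88950001 and 88955001 lay outside it. The share of bins called over the genome was not computed for bins of 5 kb or for the other scalings, so these counts have no background. The HELLS ratio of 1.01 ranged from 0.890 to 1.19 over its 9 alternatives, all inside its interval (0.697 to 1.46). The remaining alternatives of these 4 results stayed inside the interval or within 1.5 times the count. Among them, keeping every deposited read could change little, since each library held only 1640 to 4025 repeated reads. Nor could other read shifts do much to a total over 55 kb. Without replicates the spread between cultures is unknown, and a 500 bp bin needed at least 6 reads (E2F3, HELLS) or 7 (H3K27me3) to be able to pass as lower.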

Other observations

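The values below were chosen after they were seen. In the strongest H3K27me3 region, from 88921988 to 88923167, HELLS reads were 9 in wild type and 0 in E2f3-/- cells, against 9 IgG reads. At a floor of 3 counts this was at least 3.02-fold lower, with an upper bound of the ratio of 0.503. Between the Arf and Cdkn2b regions, 1 bin from 88953001 to 88953500 held 16 wild-type and 0 E2f3-/- H3K27me3 reads against 9 IgG reads, with no peak in any list. That was at least 3.97-fold lower at the same floor, with an upper bound of the ratio of 0.348 from counting error. The bin just past the Ink4a-spaced peak, from 88928501 to 88929000, had 0 and 5 H3K27me3 reads, at least 2.24-fold higher at that floor. Counting error alone puts the ratio at 1.23 or more. It was the only bin of 43 that met the criteria for higher, where 0.982% did over the genome. The E2F3 antibody had more reads in E2f3-/- cells over the 5 kb from 88945001 to 88950000, with 10 and 23 reads with 18 for IgG and a ratio of 2.39 (1.09 to 5.63). How often stretches of 5 kb reach such a ratio over the genome was not computed.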
